A study of Homo sapiens with 7 samples.

Results

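The 20 genes for the cytosolic aminoacyl-tRNA synthetases were targeted by 80 of the 77441 guides in a pooled CRISPR knockout screen, with 4 guides per gene. Guides were taken by the gene symbol in the guide table. The screen used a clonal reporter line made from HCT116, a human colorectal carcinoma line, in which GFP is made when a detained intron of OGT, the O-GlcNAc transferase gene, is spliced out of the reporter transcript integrated at AAVS1. All cells received the Brunello guide library in a lentivirus at an MOI of 0.3, were kept in puromycin for 8 days from day 2, and were exposed on day 9 to 1 µM thiamet G (TG), an O-GlcNAcase inhibitor, for 24 h. On day 10 the cells with high GFP were collected ("sorted", 3 libraries) and unsorted cells served as control ("input", 3 libraries), so both groups were TG-treated and every result holds only for TG-treated cells of this 1 clonal line. The seventh library sequenced the guide pool itself ("pool", 1 library). The record and the study's methods differ on whether the pool came from unselected infected cells or from the original DNA preparation.

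Aminoacyl-tRNA synthetases join each amino acid to its tRNA and so supply the ribosome with charged tRNAs, and most cells that lose one of the cytosolic enzymes cannot sustain protein synthesis. The enzymes fall into class I and class II by the fold of their catalytic domain. Several of them are bound in the multisynthetase complex around the scaffold proteins AIMP1, AIMP2 and EEF1E1, whereas the others act as free enzymes, and uncharged tRNA is the signal that activates the kinase GCN2 (EIF2AK4) and its downstream factor ATF4. The 8 complex members were EPRS, IARS, LARS, MARS, QARS, RARS, KARS and DARS (32 guides), and the 12 free enzymes were AARS, CARS, FARSA, FARSB, GARS, HARS, NARS, SARS, TARS, VARS, WARS and YARS (48 guides).

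Each of the 80 guides had 1 perfect 20-base match followed by NGG in the human genome (GRCh38), and each match lay in the gene the guide was named for. By the gene models 79 cut in coding sequence and 1, a LARS guide, cut at the boundary of a coding exon. The cuts lay 5.59 to 66.7% of the way along the coding sequence (median 36.1%), and guide GC content ran from 20 to 65% (median 45%). Sequences are given below for the guides whose values carry the comparisons. Each is written 5′ to 3′ in lower case with the adjacent genomic PAM in capitals, and the number is the guide's identifier in the table. The guides of QARS, glutaminyl-tRNA synthetase, and MARS, methionyl-tRNA synthetase, are shown because these 2 genes had the lowest input level relative to the pool.
QARS 15625: acttgactcgataggctacaGGG
QARS 15626: ggctagaagaaacagaccggAGG
QARS 15627: gtgactccgcacatactcaaGGG
QARS 15628: tggagtgaccacatagcctgGGG
MARS 11133: aagatgacctcactaaccagTGG
MARS 11134: ataacccgagacctcaaatgGGG
MARS 11135: caaacgaaatgttaaaccagCGG
MARS 11136: gatcggcagactttacactgAGG

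The QARS guides matched chr3:49099992-49100011 (plus strand, exon 14 of 24), chr3:49102233-49102252 (minus strand, exon 7), chr3:49103947-49103966 (plus strand, exon 3) and chr3:49101668-49101687 (plus strand, exon 9), in the order listed. The MARS guides matched chr12:57489296-57489315 (plus strand, exon 3 of 21), chr12:57511812-57511831 (plus strand, exon 12), chr12:57498567-57498586 (minus strand, exon 9) and chr12:57504231-57504250 (minus strand, exon 11). The 4 MARS guides thus cut in 4 different exons, at residues 82, 500, 346 and 435 of the 900-residue protein.

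The guides of TARS, threonyl-tRNA synthetase, and GARS, glycyl-tRNA synthetase, are shown because these 2 genes had the highest input level relative to the pool.
TARS 18717: cctttgatagatctctgccgGGG
TARS 18718: ggcccgaggtcatccagagtCGG
TARS 18719: taaagtaaataatgttgtgtGGG
TARS 18720: ttatgtttgatcatcggccaAGG
GARS 6881: attaagttaaaagacactggAGG
GARS 6882: gagatattccaaccttcgtgAGG
GARS 6883: gctttgtctacgtctacttgGGG
GARS 6884: tggctcgtgcatgacaggagAGG

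The TARS guides matched chr5:33456156-33456175 (plus strand, exon 8 of 19), chr5:33459754-33459773 (minus strand, exon 11), chr5:33453319-33453338 (plus strand, exon 4) and chr5:33460904-33460923 (plus strand, exon 12). The GARS guides matched the minus strand at chr7:30609672-30609691 (exon 7 of 17), chr7:30617170-30617189 (exon 10), chr7:30598835-30598854 (exon 2) and chr7:30621440-30621459 (exon 11).

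A further 6 guides are shown for their sorted values: those with the highest or lowest sorted over input among guides of at least 100 normalised input counts, or with an adjusted p below 0.05.
RARS 15841: cattattagccgcctacaagAGG
DARS 4522: atacaatcacaagaaaaaccAGG
HARS 8171: gctggacatagtccccaatgCGG
HARS 8172: taaacgctaccacatagcaaAGG
NARS 12208: ggtgcgttagaaggatatagAGG
WARS 20212: tctctgacctggactacatgGGG

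They matched chr5:168492703-168492722 (plus strand, exon 3 of 15), chr2:135983399-135983418 (minus strand, exon 2 of 16), chr5:140677333-140677352 (plus strand, exon 8 of 13), chr5:140679064-140679083 (minus strand, exon 5 of 13), chr18:57613652-57613671 (minus strand, exon 5 of 14) and chr14:100353689-100353708 (minus strand, exon 6 of 11), respectively.

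Depth was 27.8 to 29.5 M reads per input library, 26.2 to 31.0 M per sorted library and 35.8 M for the pool. Cell libraries are given as the authors' normalised counts and numbered by their place in the data, because the values carry no replicate numbers. The sorted libraries held many empty guides: 7, 9 and 8 of the 80 synthetase guides were at 0 in sorted libraries 1, 2 and 3 (8.75, 11.25 and 10%), next to 7.88, 10.9 and 7.33% of all targeting guides and 1.8, 1.2 and 1.6% of non-targeting guides. In all, 17 of the 80 were at 0 in 1 or more sorted libraries, and none was at 0 in any input library. Input counts of the 80 guides were spread around medians of 222, 212 and 213 in the 3 input libraries, and sorted counts around 244, 193 and 274. The highest single count, 2482 for an AARS guide, was in sorted library 2.

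The first comparison asked how abundant the synthetase guides were in the cells on day 10, irrespective of GFP, relative to the pool. The log2 ratio of input over pool, scaled so that the median targeting guide is 0 and averaged over 4 guides, was below 0 for 17 of the 20 synthetases (54.3% of all 19112 genes were below 0). The median over the 20 genes was -0.33, a 0.795-fold level, against -0.03 over all genes, and it was -0.36, -0.36 and -0.39 in the 3 input libraries taken singly. QARS and MARS were at or below -1, a 0.5-fold level, as were 1.59% of all genes. Of the 80 guides, 19 (23.75%) were at or below -1, whereas 7.69% of all targeting guides and 1.8% of non-targeting guides were. Non-targeting guides had a median of 0.30, so that relative to them the synthetase median was lower, at -0.62. With only 1 pool library these ratios have no test; the SD given with each is the spread over 3 input libraries against that same pool.

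Among the complex members, QARS was lowest at -1.19 ± 0.24 (SD, n = 3 input libraries) and MARS next at -1.12 ± 0.12. DARS, aspartyl-tRNA synthetase, stood at -0.63 ± 0.25 and KARS, lysyl-tRNA synthetase, which also supplies the mitochondrial enzyme, at -0.61 ± 0.16. EPRS, the fused glutamyl- and prolyl-tRNA synthetase, was at -0.31 ± 0.22, LARS, leucyl-tRNA synthetase, at -0.29 ± 0.07 and IARS, isoleucyl-tRNA synthetase, at -0.19 ± 0.30. RARS, arginyl-tRNA synthetase, was at 0.03 ± 0.10, which placed it alone among the complex members above 0.

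Among the free enzymes, CARS, cysteinyl-tRNA synthetase, was lowest at -0.91 ± 0.16. VARS, valyl-tRNA synthetase, followed at -0.63 ± 0.21 and SARS, seryl-tRNA synthetase, at -0.61 ± 0.21. A middle group lay close together: FARSA and FARSB, the alpha and beta subunits of phenylalanyl-tRNA synthetase, at -0.36 ± 0.08 and -0.30 ± 0.16, HARS, histidyl-tRNA synthetase, at -0.35 ± 0.35, NARS, asparaginyl-tRNA synthetase, at -0.35 ± 0.14, and AARS, alanyl-tRNA synthetase, at -0.29 ± 0.13. YARS, tyrosyl-tRNA synthetase, was at -0.11 ± 0.15 and WARS, tryptophanyl-tRNA synthetase, at -0.06 ± 0.10. GARS, which like KARS also serves mitochondria, was at 0.13 ± 0.20, and TARS was far above the rest at 0.74 ± 0.22, higher than 99.6% of all genes. With all 20 genes in 1 order, 15 of the 19 pairs of neighbours differed by no more than the larger SD of the pair. The other gaps were those of 0.22 between MARS and CARS, 0.28 between CARS and VARS, 0.24 between SARS and FARSA, and 0.61 between GARS and TARS.

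The ranges of the complex and free sets overlapped, but QARS and MARS were below every free enzyme, and GARS and TARS above every complex member. The median was -0.46 for the 8 complex members and -0.32 for the 12 free enzymes, a difference of -0.14, which was -0.01, -0.33 and -0.25 in the 3 input libraries. At or below -1 were 9 of the 32 complex guides (28.1%) and 10 of the 48 free guides (20.8%). Divided by enzyme class with EPRS, which holds both kinds of domain, left out, the median was -0.29 for 9 class I genes and -0.35 for 10 class II genes, while 12 of 36 class I guides (33.3%) and 7 of 40 class II guides (17.5%) were at or below -1. Gene medians and guide shares therefore ordered the classes differently.

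Guides of 1 gene disagreed widely. The range between the lowest and highest of a gene's 4 guides had a median of 1.53 log2 units over the 20 genes, from 0.63 to 2.60. In 11 of the 20 genes at least 1 guide was at or below -1, as in 25.4% of all genes with 4 guides. MARS was the only 1 of the 20 with all 4 guides below 0, a pattern that 8.35% of all genes with 4 guides had. The 4 MARS guides had 209, 779, 186 and 298 pool reads. MARS 11133 had input counts of 51.0, 55.1 and 56.4, a ratio of -1.38 ± 0.08, and MARS 11134 had 260, 199 and 326, a ratio of -1.05 ± 0.36. MARS 11135 had 38.7, 123 and 87.6 (-0.75 ± 0.85) and MARS 11136 had 114, 65.7 and 69.4 (-1.32 ± 0.43). The ratio of MARS 11135 thus changed most with the input library, and the other 3 guides were at or below -1.

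QARS owed its rank to 3 of its guides. QARS 15625, with 500 pool reads, had input counts of 357, 359 and 343 and a ratio of 0.05 ± 0.03. The other QARS guides were at -1.87 ± 0.81 (QARS 15626), -1.77 ± 0.06 (QARS 15627) and -1.17 ± 0.65 (QARS 15628). QARS 15626 had 164 pool reads and input counts of 23.9, 56.9 and 19.1, and QARS 15627 had 330 pool reads and 66.6, 62.1 and 66.8. QARS 15625 thus stayed near the pool level while the gene as a whole was at a 0.438-fold level.

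At the other end, the lowest TARS guide was at -0.05. TARS 18719, with 209 pool reads, had input counts of 289, 441 and 506 and a ratio of 1.49 ± 0.42, and TARS 18720, with 197 pool reads, had 200, 416 and 345 (1.19 ± 0.55). TARS 18717 was at 0.32 ± 0.34 and TARS 18718 at -0.05 ± 0.33. In GARS the ratios ran from -0.79 ± 0.44 for GARS 6884 to 0.75 ± 0.36 for GARS 6883, with GARS 6881 at 0.06 and GARS 6882 at 0.51. The lowest single guide of all 80 belonged to SARS, at -1.90, in a gene whose highest guide was at 0.44.

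The position of the cut and the GC content of a guide were at most weakly related to its ratio. The 19 guides at or below -1 cut at a median of 30.6% of the coding sequence (7.92 to 66.7%) and the other 61 at 37.2% (5.59 to 65.1%). Across guides, which are not independent, Spearman's rho of the ratio was 0.06 with coding position (n = 79), -0.17 with GC content and -0.29 with pool reads (n = 80), where pool reads also enter the ratio itself.

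Nearby lists gave a scale for these values. The 16 mitochondrial synthetases in the table, which charge mitochondrial tRNAs, had a median of -0.21 with 7 of 64 guides (10.9%) at or below -1, and with YARS2 lowest at -0.99 and no gene at or below -1. The scaffold proteins were at -0.34 (AIMP1), -0.70 (AIMP2) and 0.01 (EEF1E1). The 5 subunits of eEF1, the factor that delivers charged tRNA to the ribosome, had a median of -0.21 with EEF1A1 lowest at -1.04. The 11 genes of the GCN2 and ATF4 branch had a median of 0.07, from -0.75 for PPP1R15B, a regulatory subunit of an eIF2alpha phosphatase, to 0.54 for IMPACT, a GCN2 inhibitor. TARSL2, a cytosolic relative of TARS, was at -0.30, in contrast to the 0.74 of TARS. The difference between these lists and the cytosolic enzymes was not tested.

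The second comparison asked whether loss of a synthetase changed the share of cells with high GFP under TG. Genes were ranked by robust rank aggregation (RRA), which asks whether a gene's guides sit together at the top or the bottom of the guide ranking, with Benjamini-Hochberg adjustment over all genes. At an adjusted p below 0.05 none of the 20 synthetases was enriched in sorted cells (0.314% of all genes, 60 in number, were) and none was depleted (0.00523%, 1 gene). At an unadjusted RRA p below 0.05, MARS and RARS were enriched (2 of 20; 5.47% of all genes) and NARS was depleted (1 of 20; 5.53%). By limma on gene means 0 of 20 passed an adjusted p of 0.05 (0.0157% of all genes), with 2 higher (MARS and RARS; 1.96%) and 4 lower (HARS, NARS, TARS and DARS; 13.9%) at an unadjusted p below 0.05. By edgeR on recovered reads summed per gene 0 of 20 passed (0.272%), with 4 higher (MARS, RARS, AARS and GARS; 5.28%) and 1 lower (NARS; 2.76%) at an unadjusted p below 0.05. Gene values below are limma log2 fold changes of sorted over input (± SE, 3 against 3 libraries), for which the median of all genes was -0.56, so a gene at -0.56 is at the middle of the screen.

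MARS had the highest value of the 20, at 1.91 ± 0.42, above 99.9% of all genes. Averaged over 4 guides, its normalised counts were 116, 111 and 135 in input and 362, 332 and 604 in sorted cells. Against the mean of the inputs the log2 fold change was 1.58, 1.74 and 2.40 in sorted libraries 1, 2 and 3. The RRA p was 0.000269 and its adjusted value 0.0703, the limma adjusted p was 0.180, and edgeR gave 1.68 with an adjusted p of 0.0901. MARS passed the RRA threshold under 3 other settings, with adjusted p of 0.0445 for a pseudocount of 10, 0.0241 for libraries scaled to equal totals and 0.0131 for guide p-values from edgeR, whereas without sorted library 2 it was 0.413 and without sorted library 3 it was 0.592. With the fit limited to guides averaging 200 or more input counts, which kept 1 of the 4 MARS guides, it was 0.842.

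All 4 MARS guides were higher in sorted cells, by 1.42 to 2.36 on the log2 scale. MARS 11133 had sorted counts of 223, 388 and 256.5 (2.36 ± 0.92), MARS 11134 had 742, 385 and 1145.5 (1.42 ± 0.44) and MARS 11135 had 372, 211 and 660.5 (2.30 ± 0.82). For these 3 guides every sorted value was above every input value. MARS 11136 had 110, 343 and 352 (1.55 ± 0.92), and its first sorted value lay below its highest input value of 114. MARS was also the gene with the second lowest input over pool, and the input libraries enter both ratios. Set against the pool directly, a comparison chosen after the values were seen, MARS guides in sorted cells stood at log2 ratios of 0.45, 0.57 and 1.26 in the 3 libraries (mean 0.76, above 98.8% of all genes). In this ratio, in which the median targeting guide is 0, the median of all genes was -0.63.

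RARS, in the same complex, was next at 0.88 ± 0.27. Its mean counts were 278, 236 and 266 in input and 536, 515 and 416 in sorted cells, and the 3 sorted libraries gave 0.87, 0.99 and 0.79. The 4 guides ran from 0.51 to 1.18, and 3 of them had every sorted value above every input value. RARS 15841 had input counts of 361, 290 and 304 and sorted counts of 1200.3, 405 and 494 (0.97 ± 0.43), so 1 library supplied much of its difference. The RRA p of RARS was 0.00247 and the adjusted p 0.323, and the lowest adjusted p over the other settings was 0.255. Against the pool, the sorted level of RARS was 0.90, 0.97 and 0.81 (mean 0.89), above 99.4% of all genes, and its input over pool was 0.03.

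FARSA was at 0.62 ± 0.29 and AARS at 0.29 ± 0.20, with limma adjusted p of 0.349 and 0.469. These were the other genes that were above 0 in all 3 sorted libraries, which made 4 of 20 (7.02% of all genes). With libraries scaled to equal totals, FARSA was at 0.40 and AARS at 0.065, where the median of all genes was -0.77. FARSA had mean counts of 377, 314 and 297 in input and 498, 565 and 400.2 in sorted cells. AARS had 449, 549 and 495 in input and 613, 1017 and 743 in sorted cells. FARSB, the partner subunit of FARSA, was at -0.84 ± 0.70, with -1.55, -1.53 and 0.57 in the 3 sorted libraries. FARSB was below FARSA in sorted libraries 1 and 2 and above it in sorted library 3, where FARSA was at 0.19, so the values of the subunits overlapped.

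The lowest values belonged to free enzymes. HARS was at -2.67 ± 0.62 (limma adjusted p = 0.187) and NARS at -2.48 ± 0.60 (0.198), each lower in all 3 sorted libraries. Each of the 4 HARS guides was at 0 in exactly 1 sorted library. HARS 8171 had input counts of 176, 135 and 204 and sorted counts of 163, 0 and 139.5. HARS 8172 had input counts of 197, 209 and 334 and sorted counts of 9.05, 0 and 123, all below its input values. Over guides averaging 200 or more input counts, which kept only HARS 8172, limma gave -4.48 for HARS. In reads summed over its guides HARS was at -0.67 by edgeR (adjusted p = 0.678), where the median of all genes was 0.03.

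NARS 12208 was 1 of 2 synthetase guides that passed an adjusted p of 0.05 by limma (0.682% of all guides did), and both were lower in sorted cells. It had 180 pool reads, input counts of 86.4, 74.4 and 52.0, and 0 in all 3 sorted libraries. Taking 3 reads per library as the limit that a count of 0 allows, the guide was at least 24.1-fold lower in sorted reads (limma adjusted p = 0.0376). That limit covers counting error in reads only and says nothing on how many cells were sampled. Because all 3 sorted values were 0, they gave the limma fit no spread of their own. The other called guide was WARS 20212, with 8 pool reads, input counts of 4.11, 5.25 and 13.9 and again no sorted reads. By the same limit it was at least 2.63-fold lower in sorted reads (limma adjusted p = 0.0466). The count behind it was thus too small to carry a statement on WARS. By edgeR neither passed (adjusted p of 0.539 and 0.702), and 0% of all guides did. Guides at 0 in all sorted libraries made up 2 of 80 here and 0.938% of all targeting guides. With these guides held at their limits NARS was at -1.99 and WARS at -0.93, and the median over the 20 genes did not move from -0.36.

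The other NARS guides had values from -1.43 to -0.95, and NARS summed over guides was at -0.99 by edgeR (adjusted p = 0.568). Mean NARS counts were 227, 207 and 206 in input and 68.3, 115 and 179 in sorted cells. DARS was at -1.60 ± 0.67, and most of that came from DARS 4522, with input counts of 142, 162 and 121 and sorted counts of 123, 0 and 0 (-4.83 ± 2.21). TARS was at -1.39 ± 0.47, with TARS 18717 at 117, 77.0 and 77.2 in input and 0, 10.3 and 0 in sorted cells (-5.32 ± 1.47, limma adjusted p = 0.326). The other TARS guides ran from -0.74 to 0.32. In reads summed per gene by edgeR, DARS was at -0.17 and TARS at -0.14, and over guides averaging 200 or more input counts limma gave -0.30 for DARS and -0.076 for TARS. EPRS was at -1.62 ± 0.79 and WARS at -1.43 ± 0.92, the largest error of the 20, with 0.48, -3.15 and -1.61 in the 3 sorted libraries. By edgeR EPRS was at -0.42, and WARS was above 0, at 0.51. The WARS sum included 1 guide with sorted counts of 1433.7, 2.29 and 2.70, almost all in sorted library 1.

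QARS, the gene with the lowest input over pool, was at -1.03 ± 0.76 and its guides parted in sorted cells. QARS 15625 was nearly level, with sorted counts of 338, 358 and 445 (0.10 ± 0.30). QARS 15626 had 163, 137 and 192, all above its input values (2.41 ± 1.35). QARS 15627 had 0, 145 and 0 (-3.65 ± 2.17) and QARS 15628 had 0, 1.14 and 492 (-2.98 ± 2.51). The 3 guides with low input over pool thus lay on both sides of 0, unlike those of MARS.

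GARS was at -0.09 ± 0.57. Its mean counts were 274, 221 and 281 in input and 391, 362 and 507 in sorted cells. The sorted means include the single counts of 698.5 and 1092 given below. GARS 6884 was among the 3 highest guides of at least 100 input counts, with input counts of 367, 199 and 285 and sorted counts of 721, 521 and 538 (1.09 ± 0.34, limma adjusted p = 0.445). GARS 6881 had 422, 698.5 and 176 in sorted cells, GARS 6882 had 245, 226 and 1092, and GARS 6883 had 175, 0 and 221. Each of these 3 GARS guides had sorted values above and below its input values.

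The remaining genes lay between -0.57 and -0.01: LARS at -0.57 ± 0.61, CARS at -0.49 ± 0.36, YARS at -0.22 ± 0.55, VARS at -0.22 ± 0.71, SARS at -0.21 ± 0.62, IARS at -0.18 ± 0.86 and KARS at -0.01 ± 0.26. Their distance from 0 was within 1.5 SE throughout, but the middle of the screen was at -0.56. Measured from that median, they ran from -0.01 for LARS to 0.55 for KARS, whose SE was 0.26. KARS had the steadiest counts of these, 392, 337 and 332 in input and 385, 345 and 378 in sorted cells, which overlapped. VARS had 239, 181 and 224 in input and 289, 80.6 and 449 in sorted cells, with the lowest and the highest value both in the sorted group. Over all 20 genes, 7 were lower in every sorted library (29.0% of all genes), 4 higher and 9 of mixed sign. Of the 16 synthetases below 0 by limma, 9 were above 0 by edgeR, and the 4 above 0 were so by both. The fits have different centres, with all-gene medians of -0.56 by limma and 0.03 by edgeR, so these signs are not directly comparable. Against the limma median of all genes, 11 of the 20 synthetases were above. Abundant guides also weigh more in edgeR.

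At the level of guides, limma gave 6 of 80 higher (4.42% of all guides) and 3 lower (2.94%) at an unadjusted p below 0.05. Without any model, 14 of 80 had all 3 sorted values above all 3 input values (9.05% of all targeting guides) and 5 had all below (7.47%). MARS and RARS held 3 each of the 14, FARSA and YARS 2 each, and DARS, GARS, KARS and QARS 1 each. NARS held 2 of the 5, and HARS, TARS and WARS 1 each. Of the 14 guides, 9 belonged to complex members, among them the 3 each of MARS and RARS, and none of the 5 did. Complex members supplied 32 of the 80 guides. Mean input was under 200 for 62.5% of complex guides and 39.6% of free guides. Whether the split differs from that of all targeting guides was not tested.

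As a set the synthetases were near the middle of the screen. Their median minus that of all genes was 0.20, and it was 0.19, -0.39 and 0.25 in the 3 sorted libraries, so the sign depended on the library. Complex members had a median of -0.37 and free enzymes of -0.36, and in the single sorted libraries the complex minus free difference was -0.04, 0.47 and 0.91. No direction for complex against free enzymes could be read from these values, although MARS and RARS, the highest of the 20, are both in the complex, and HARS and NARS, the lowest, are both free.

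No gene of the other lists was called by RRA, limma or edgeR. All 3 scaffold proteins were below the median of all genes, at -1.27 ± 0.48 (AIMP1), -1.22 ± 1.05 (EEF1E1) and -0.79 ± 0.95 (AIMP2), while by edgeR AIMP2 and EEF1E1 were above 0, at 0.47 and 0.44. The mitochondrial enzymes had a median of -0.48, from -2.44 ± 1.04 for VARS2 to 0.24 ± 0.49 for TARS2, and MARS2, the mitochondrial counterpart of MARS, was at -0.27 ± 0.54. EEF1A1, the lowest eEF1 subunit in input over pool, was the highest in sorted over input, with 1.34, 0.33 and 1.89 in the 3 sorted libraries (1.18 ± 0.60, RRA adjusted p = 0.925). In the GCN2 and ATF4 branch, ASNS, the asparagine synthetase that ATF4 induces, was highest at 0.44 ± 0.27 and PPP1R15B lowest at -2.16 ± 0.60, and EIF2AK4 itself was at 0.11 ± 0.52.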

How the data were processed

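Guides were sequenced from 3 input libraries, 3 sorted libraries and the pool. The labels name FastQC 0.11.9, cutadapt 3.3 and MAGeCK, without a version, for the authors' processing. The resource list in the study's methods has earlier releases of FastQC and cutadapt, and MAGeCK-VISPR with a version number, and which were used for these files is unclear. The deposited guide table joins the normalised counts of each group by slashes, with no replicate numbers, and the pool came as raw counts in a deposited table of its own. Deposited fold changes, p-values and scores of sorted against input are the authors' findings and were not used.

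Whole reads were recovered from the normalised counts (tolerance 0.1 reads, 100% of low values whole). Of 77441 guides (76441 targeting, 1000 non-targeting), 53 at 0 in all 6 cell libraries were left out of guide tests. Sorted and input were compared on log2(normalised count + 1) with limma 3.58.1 (lmFit, eBayes with trend, R 4.3.3) for guides and gene means. This scale understates changes between low counts, but counts of 0 in single sorted libraries give large falls on it. HARS, at -2.67, was at -1.52 with a pseudocount of 10. RRA (alpha 0.25, exact null) ranked genes from one-sided guide p-values, since MAGeCK was not run. Adjustment was by Benjamini-Hochberg over all genes or guides. Spread in limma and edgeR is that among libraries which the labels call biological replicates, while RRA draws its null from guides. edgeR 4.0.16 (quasi-likelihood, TMM) on recovered reads was an alternative. Input over pool was log2((input + 1)/(pool + 1)), scaled to the median targeting guide. The limit for a count of 0 was 3 reads per library and covers counting error only, as reads carry no molecular identifiers. Scripts were tested on simulated data, in which sorted counts were drawn around the input mean without the many empty guides of the real sorted libraries. The handling of counts of 0 was therefore not tested. Guides were matched to GRCh38 with GENCODE gene models, in which 18 of the 20 genes have newer symbols (MARS is MARS1).

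All 20 genes were described. Guides shown were those of the 2 lowest and 2 highest genes in input over pool, the 3 highest and 3 lowest in sorted over input with a mean input of at least 100, and those with an adjusted p below 0.05. Genes of other lists were named if called or highest or lowest, with MARS2 and EIF2AK4 added after their values were seen. Members and lists were chosen with earlier results of these data known. CARS2 was not used here. Alternatives were a pseudocount of 10, guides with mean input of 200 or more, the median over guides, equal totals, scaling to non-targeting guides, edgeR, an RRA alpha of 0.1 and leaving out each library.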

Additional observations from a re-analysis of the deposited data

How the results depend on the processing

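The count of enriched synthetases by RRA was 0 and became 1, MARS, with a pseudocount of 10, with equal totals and with edgeR guide p-values. No synthetase was depleted under any setting run. By limma on gene means 0 to 2 were called when single libraries were left out; the 2 were DARS (-2.22) and MARS (2.07) without sorted library 1, a fit that called 6.14% of all genes. The 2 called guides became 0 with a pseudocount of 10, with a mean input of at least 200 and with edgeR, and ranged from 0 to 3 when libraries were left out, with 0 without sorted library 2 and 1 without sorted library 3.

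The synthetase median minus that of all genes, 0.20, ranged from -0.26 (without sorted library 3) to 0.25 when libraries were left out and was 0.001 without sorted library 2. The complex minus free difference in sorted over input, -0.02, was 0.14 with a pseudocount of 10, 0.051 with a mean input of at least 200 and 0.11 with edgeR, and ranged from -0.19 to 0.38 without single libraries. For input over pool, the complex minus free difference of -0.14 stayed below 0 throughout. It was near 0, however, at -0.022 with a mean input of at least 200 and at -0.01 in input library 1 alone. Its SD between the single input libraries was 0.17, larger than the difference itself.

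The synthetase median of input over pool, -0.33, was -0.31 with a pseudocount of 10, -0.093 with a mean input of at least 200 and -0.62 when scaled to non-targeting guides, and ranged from -0.36 to -0.30 without single input libraries. The 19 guides at or below -1 became 6 and 29 under the latter settings. The filter itself removes guides of low input, and kept 41 of 80 guides and 18 of 20 genes. The median of all genes in sorted over input was -0.56, and -0.30 with a pseudocount of 10, -0.77 with equal totals and 0.03 with edgeR. All genes enriched by RRA numbered 60, and 19 with the input filter, 19 without sorted library 2 and 20 without sorted library 3.

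No paired analysis was possible because replicate numbers are absent from the joined values. A replicate block was not run, and which library came from the pilot at 100-fold coverage, rather than 300-fold, is unknown. Sorted libraries in which guides fall to 0 limit every statement on lower genes.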
